A study of Gallus gallus and Columba livia with 18 samples.

Results

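The chicken Z chromosome genes described here are the entries of the chicken expression table that lie on chromosome Z and reached an FPKM of at least 1 at one embryonic stage or more. FPKM divides a gene's fragment count by its transcript length and by the library's mapped fragments, so levels of different genes are compared per length. Of 1330 Z entries among 24708 in the table, 871 met the rule, 359 stayed above 0 but under 1, and 100 were at 0 at all 3 stages. The member nearest the threshold peaked at an FPKM of 1.00, and the highest entry left out peaked at 0.990.

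Retinas of chicken (Gallus gallus) embryos were collected at E3 (embryonic days 3 to 3.5), E5 (days 5 to 5.5) and E8 (days 8 to 8.5), from fertilized eggs kept in a humidified incubator at 37 °C. Each stage had 3 mRNA libraries, each made from 1 to 6 whole retinas, and pigeon (Columba livia) retinas were collected the same way. Strain and sex of the embryos could not be read from the labels, so retinas of both sexes may be pooled in a library. The authors deposited 1 FPKM per gene and stage, pooled over the libraries, so no difference below has a replicate check, an SD or a p-value.

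In birds the sex chromosomes are Z and W. Males carry a pair of Z chromosomes, while females carry a single Z and a small, gene-poor W. Unlike the mammalian X, the Z is not silenced as a whole in either sex, and dosage compensation is known to act on some Z genes more than on others, which leaves many of them at a higher level in males than in females. The chicken Z also carries genes with roles in the eye, among them ISL1 and RORB, which encode transcription factors used by several classes of retinal neuron.

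Of the 871 members, 505 carried a gene symbol, 61 an Ensembl identifier, 2 several joined names and 303 no name, which is 34.8% unnamed against 26.5% on chromosomes 1 to 5. Symbols listed once in the table numbered 482, and 23 members carried a symbol that several entries share, so their reads could be split between copies. Of the 482 symbols, 417 are current symbols in RefSeq (assembly GRCg7b), which places 414 of them on Z as well. A further 28 matched through an older symbol and 37 did not match. The intervals of 109 members overlapped another entry, and the levels of these are uncertain where the counting could not separate them. The sources used here do not name the genome build of the coordinates, so positions below are the table's own, counted from 1.

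The tissue label held against its defining markers, with 7 retinal genes (among them PAX6 and SIX6) summing to 818 FPKM at E3, 860 at E5 and 1344 at E8, each at 1 or more at every stage. The larger sum at E8 came mostly from ATOH7, with 22.4, 117 and 555 FPKM. PAX6 (301, 253 and 252) and LHX2 (88.2, 57.8 and 48.2) were highest at E3. SIX6 (76.1, 82.6 and 104) and SOX2 (69.5, 101 and 136) were highest at E8. Markers of other tissues were also present and differed between stages. For the pigment epithelium, 8 of 11 listed markers passed the filter, and the 11 summed to 57.2, 239 and 14.6 FPKM at E3, E5 and E8, with PMEL at 0 throughout. Erythroid markers (5 globin genes matched of 10 listed) summed to 798, 1927 and 123 FPKM, lens markers (8 of 11) to 644, 705 and 60.5, and mesenchyme markers (10 of 13) to 147, 219 and 14.9, with PRRX1 at 0 at E8. All 4 lists summed highest at E5 and lowest at E8, but not every member followed its sum. The lens sum at E3 and E5 was mostly ASL1 (582, 625 and 2.33 FPKM over the stages). CRYAB (51.6, 45.8 and 52.1) and PROX1 (1.75, 1.28 and 4.90) were lowest at E5. In bulk tissue, fewer cells of a type and less RNA per cell cannot be told apart.

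The first comparison set the level of the Z genes against that of chromosomes 1 to 5, where 6927 of 11263 entries (61.5%) passed the same filter, against 65.5% on Z. The median Z gene had an FPKM of 6.55, 6.74 and 7.04 at E3, E5 and E8. The median on chromosomes 1 to 5 was 8.74, 8.70 and 8.72 at the same stages. The ratio of the medians, Z over chromosomes 1 to 5, was 0.749 at E3, 0.775 at E5 and 0.807 at E8. With no filter on low values it was 0.951, 0.991 and 1.17, so at E8 the direction depends on the filter. Genes of 1 chromosome are not replicates, and no test stands behind these ratios.

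The gap was wider in the upper part of the distribution at E8 than in the lower part. The lower quartile of Z genes stood at 0.777, 0.809 and 0.982 times that of chromosomes 1 to 5 over the 3 stages. The upper quartile stood at 0.719, 0.754 and 0.740 times, and the upper decile at 0.726, 0.753 and 0.708 times. Over all entries, the low end of the Z distribution at E8 therefore lay close to that of chromosomes 1 to 5, while the high end stayed below it. Among entries with a symbol alone the upper decile ratios were nearer to level, at 0.960, 0.943 and 0.855. The ratios of their means were 1.02, 1.07 and 0.987.

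**Figure D1:**
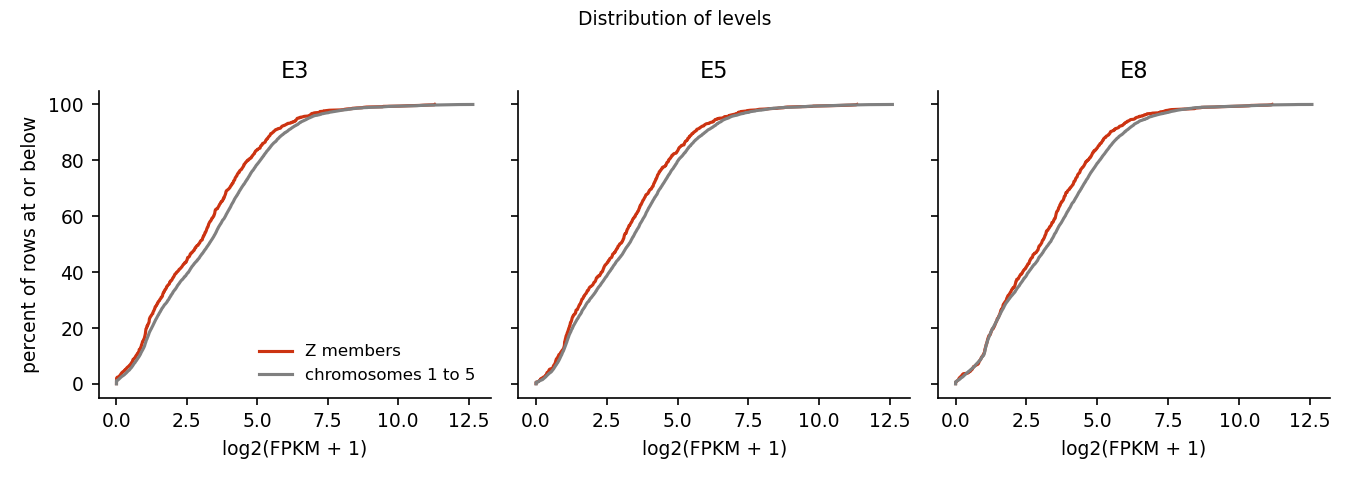
Cumulative distribution of log2(FPKM + 1) at E3, E5 and E8 (1 panel each) for the 871 Z genes (red) and the 6927 entries of chromosomes 1 to 5 (grey). The vertical axis is the percent of entries at or below a level. The red curve lies left of the grey one through the middle of each panel, and at E8 the curves meet at the low end.

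Unnamed entries are low and more common on Z, but the gap in the median was also present among entries with a symbol. These had a median of 12.4, 12.5 and 12.0 FPKM on Z and 15.2, 14.8 and 15.3 on chromosomes 1 to 5, with ratios of 0.814, 0.842 and 0.782. Unnamed entries had a median of 1.48, 1.61 and 2.00 FPKM on Z and 1.32, 1.37 and 1.59 on chromosomes 1 to 5, so among them Z was the higher one. Among the 28 chromosomes with at least 50 passing entries, Z had the lowest median at each of the 3 stages, over all such entries and over those with a symbol. The next lowest over all entries were chromosome 8 at E3 (7.82 FPKM), chromosome 1 at E5 (7.95) and chromosome 1 at E8 (7.57). Z held 5.39% of the table's entries outside the mitochondrial genome, and 4.57%, 4.82% and 4.66% of their summed FPKM at E3, E5 and E8.

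**Figure D2:**
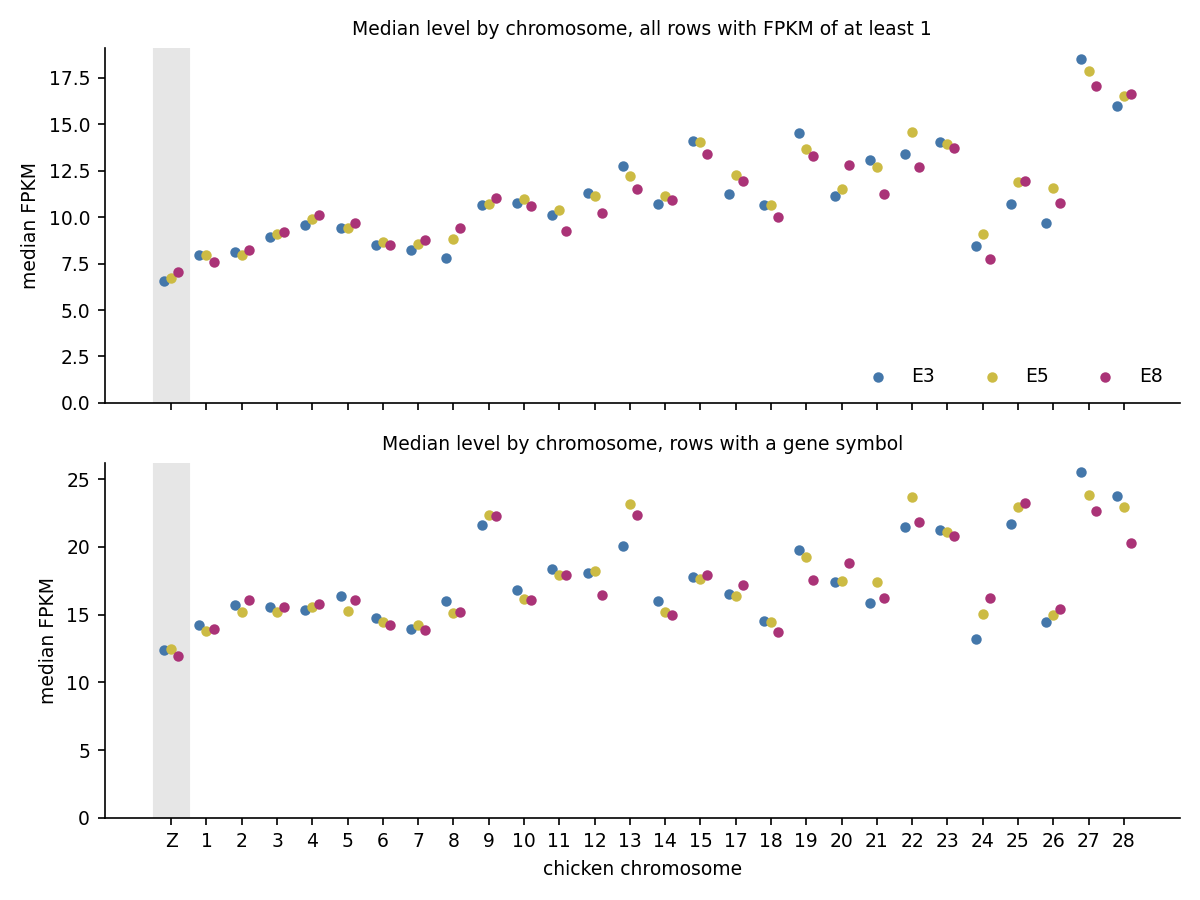
Median FPKM of the entries with at least 1 FPKM at one stage or more, by chicken chromosome (horizontal axis, Z first and shaded) at E3, E5 and E8 (colours). The upper panel holds all such entries and the lower panel those with a symbol. Z has the lowest point of its stage in both panels, at 6.55, 6.74 and 7.04 FPKM in the upper one.

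A few genes carried much of the Z total. The 8 members with the highest mean level among those whose symbol is listed once held 35.6%, 36.0% and 35.2% of the summed Z FPKM. RPS6, a protein of the small ribosomal subunit and a target of growth signalling, stood at 2497, 2590 and 2279 FPKM at E3, E5 and E8. RPS23, another small-subunit protein, stood at 1988, 2228 and 2028 FPKM, and RPL37 of the large subunit at 708, 664 and 651.

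The other high members included genes of mitochondrial respiration. ATP5A1, the alpha subunit of ATP synthase, had 1725, 1768 and 1365 FPKM, and COX7C, a cytochrome c oxidase subunit, had 1294, 1322 and 1287. The entry labelled C5ORF13 (1066, 861 and 1101 FPKM), the entry labelled RBF (702, 894 and 848) and TXN, encoding the redox protein thioredoxin (469, 470 and 355), completed the 8. RPL17L, a symbol that several entries share, was also high, at 2522, 2531 and 2226 FPKM, and stands outside the 8 for that reason. Levels thus spanned a wide range on Z: the mean over stages of the highest member was 6968 times that of the lowest.

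Stage changes are differences of log2(FPKM + 1), and a change of at least 1 in size was counted. On this scale the change of a low gene is understated. Entries at 0 at either stage were left out, which removed 19, 9 and 20 members from E5 against E3, E8 against E5 and E8 against E3. The comparisons share stages and are not independent of each other. Of the members, 656 had an FPKM of at least 1 at every stage, and 144 reached it at 1 stage only, so for those the rule itself favours a difference.

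Between E5 and E3 few Z genes differed, 33 of 852 compared (3.87%), against 2.97% of all entries. Of the 852, 26 (3.05%) were higher at E5, against 1.97% of all entries, and 7 (0.822%) were lower, against 1%. On chromosomes 1 to 5 the shares were 2.01% higher and 1.19% lower, of 6821 compared. The median change was 0.03 for Z genes and -0.02 for chromosomes 1 to 5. The share lower at E5 lay near the background, and the share higher lay above it. Chromosomes 22 (4.59%), 25 (3.60%) and 21 (3.46%) had a larger share of higher entries than Z. With symbols alone that share was 2.20% on Z and 1.87% on chromosomes 1 to 5. Changes of at least 2 were found in 4 Z genes (background 0.276%), with 3 higher (0.173%) and 1 lower (0.104%).

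Between E8 and E5, 100 of 862 Z genes (11.6%) differed, against 8.98% of all entries. Of the 862, 65 (7.54%) were higher at E8, against 4.53% of all entries and 4.66% of 6848 on chromosomes 1 to 5. Lower at E8 were 35 (4.06%), against 4.46% of all entries and 4.96% on chromosomes 1 to 5. Among the 28 chromosomes Z had the highest share of entries higher at E8, followed by chromosome 28 with 7.50%, and without the stretch between MEF2C and TMEM161B described below its share was 6.38%, lower than that of chromosome 28. The median change was nevertheless close to 0, at -0.03 for Z and 0.02 for chromosomes 1 to 5, so the excess lay in the tail. In that tail, 16 Z genes were higher by at least 2 (background 0.543%) and 2 were lower by as much (background 0.97%), while chromosomes 1 to 5 had 41 higher and 76 lower. In either direction that is 18 Z genes (background 1.51%). The 16 higher genes include XLOC_024571, ENSGALG00000023094, gga-mir-9-2 and XLOC_024573, which lie in the stretch between MEF2C and TMEM161B. Apart from ENSGALG00000023094, these passed the filter through E8 alone, as did PRLR, ENSGALG00000018499 and ENSGALG00000005812 among the 16. For such members the rule favours a higher value at E8. The tail counts without them, or without the stretch, were not computed.

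A larger share of higher entries on Z was present among those with a symbol. It was present among unnamed entries with the stretch between MEF2C and TMEM161B included. Of 300 unnamed Z members compared, 28 were higher and 9 lower at E8 than at E5. Of 1804 unnamed entries on chromosomes 1 to 5, 120 were higher and 74 lower, and of 3454 over all entries, 233 and 119. The unnamed Z count includes the stretch between MEF2C and TMEM161B, where 15 of 17 members are unnamed and 11 of 16 compared were higher. Apart from gga-mir-9-2 and ENSGALG00000023094, these 11 are unnamed, so the larger unnamed share rests in good part on that stretch. The unnamed share without it was not computed, and no larger unnamed share is claimed for the rest of Z. With symbols alone 29 of 500 (5.80%) were higher on Z and 26 (5.20%) lower. The same shares on chromosomes 1 to 5 were 3.95% and 5.24%. The share of higher genes among those counted was 65% for all Z genes and 52.7% with symbols alone. The position of the unnamed entries is described further on.

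Between E8 and E3, 116 of 851 Z genes (13.6%) differed, against 11.9% of all entries. Of the 851, 72 (8.46%) were higher at E8, against 6.65% of all entries and 6.47% on chromosomes 1 to 5. Lower at E8 were 44 (5.17%), against 5.29% and 5.67%. The median change was -0.01 on Z and -0.01 on chromosomes 1 to 5. Changes of at least 2 were found in 36 Z genes (background 2.71%), with 27 higher (1.51%) and 9 lower (1.2%). The 27 also include XLOC_024571, ENSGALG00000023094, gga-mir-9-2 and XLOC_024573 of the stretch between MEF2C and TMEM161B, and the count without it was not computed. The share of genes higher at E8 was larger on chromosomes 8 (11.1%), 22 (10.2%), 28 (8.76%) and 20 (8.52%) than on Z, and the share of lower genes on Z lay near the background.

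**Figure D3:**
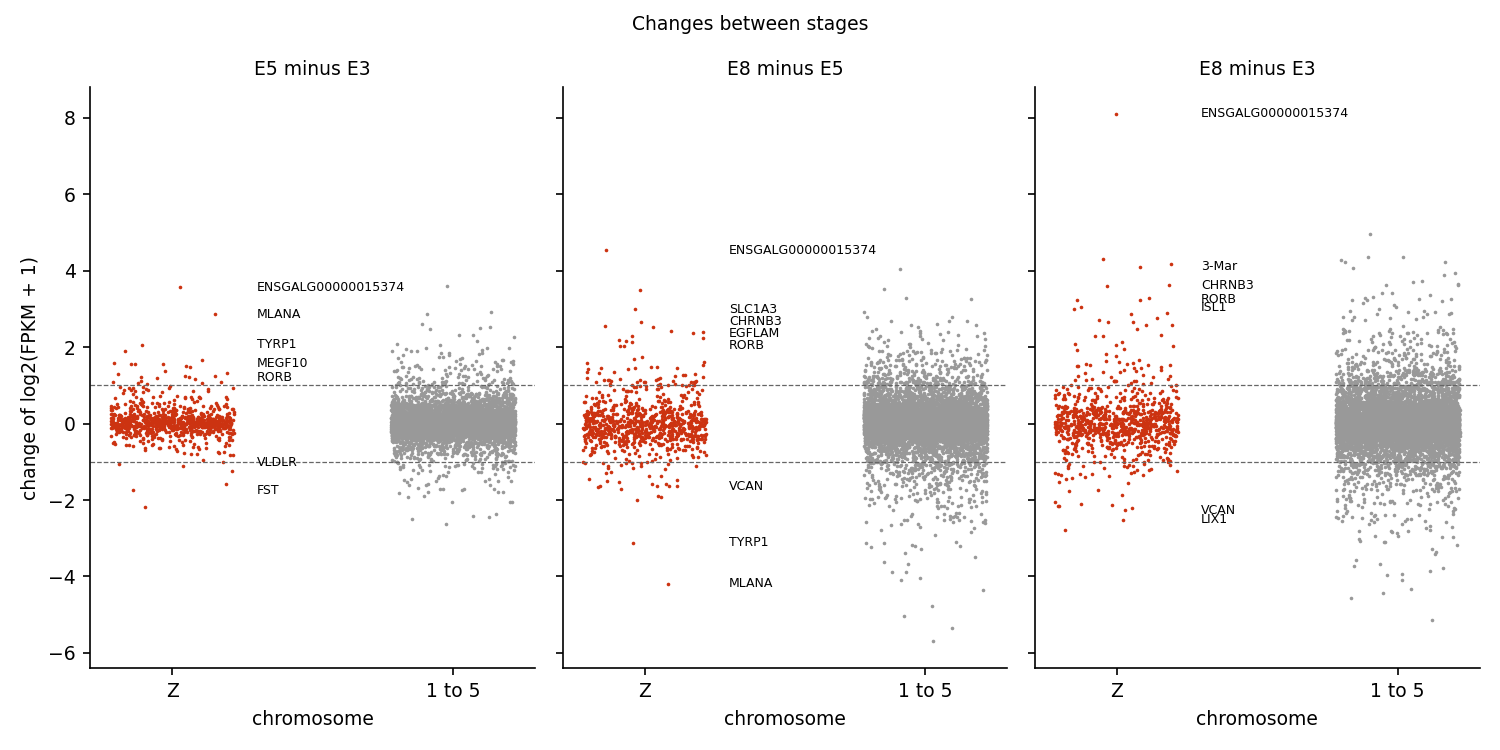
Change of log2(FPKM + 1) for E5 minus E3, E8 minus E5 and E8 minus E3 (panels), with 1 point per entry, for Z genes (red) and chromosomes 1 to 5 (grey). Dashed lines mark changes of 1 and -1, horizontal scatter carries no meaning, and names stand beside the height of their point, shifted down where they would overlap. The highest Z point in each panel is ENSGALG00000015374, at 3.57, 4.54 and 8.11.

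Regulators of retinal and neural development, transcription factors and an RNA-binding protein among them, included several of the Z genes with the widest range over the stages. Of 13 such members, 3 were higher at E5 than at E3 and none lower, against 1.97% and 1% of all entries. At E8 against E5, 4 were higher and 1 lower (4.53% and 4.46% of all entries), and at E8 against E3, 5 were higher and 1 lower (6.65% and 5.29%). Their median changes were 0.11, 0.13 and 0.42, against medians of -0.0034, -0.0011 and -0.012 over all entries. RORB, a nuclear receptor needed in mice for photoreceptor, amacrine and horizontal cells, had 8.19, 20.3 and 86.3 FPKM at E3, E5 and E8. It was lowest at E3 and highest at E8, with changes of 1.22 for E5 against E3 and 2.03 for E8 against E5.

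ISL1 (chrZ:14559796-14573642) encodes a LIM homeodomain factor of ganglion, amacrine and bipolar cells. It had 0.105, 2.12 and 9.37 FPKM at E3, E5 and E8, that is, near 0 at E3 and highest at E8. SETBP1, whose product binds the SET oncoprotein, had 1.24, 3.78 and 14.4 FPKM. ELAVL2, an RNA-binding protein of neurons, differed late, with 1.92, 2.76 and 10.4 FPKM and a change of 1.60 for E8 against E5.

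NFIL3, a basic leucine zipper repressor, had 12.6, 14.5 and 27.1 FPKM, and its change for E8 against E3 was 1.05. BNC2, a zinc finger gene of skin and connective tissue, ran the other way with 2.33, 1.33 and 0.146 FPKM. The other members of this group changed by less than 1 in every comparison, and several were abundant throughout. PSIP1, a chromatin-binding coactivator, stood at 122, 113 and 122 FPKM. GLIS3, NFIB, PAX5 and SKOR2 were on Z in the table but under the threshold of 1 at every stage, NFIB with a maximum of 0.891.

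The 5 named genes whose 2 successive changes lay nearest to those of ISL1, among 384 candidates with an FPKM of at least 5, were SETBP1, RORB, MEGF10, SYT4 and RUSC2. Their distances, in log2 units over the 3 pooled stage values, were 0.41, 0.41, 0.62, 0.69 and 0.81. RUSC2 had 0.490, 1.42 and 6.26 FPKM, lower than ISL1 at E5 and E8.

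Neuronal and synaptic genes were mostly flat, with a few members far higher at E8. Of 16 members, 1 was higher at E5 than at E3 (1.97% of all entries). At E8, 3 were higher and 1 lower than at E5 (4.53% and 4.46% of all entries), and 3 were higher and none lower than at E3 (6.65% and 5.29%). MAP1B, a microtubule-associated protein of growing axons, had 13.2, 13.6 and 35.0 FPKM. RAB3C, a small GTPase of synaptic vesicles, had 0.116, 0.397 and 2.22 FPKM, and the magnesium channel gene TRPM6 had 0.740, 1.30 and 5.21.

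Other members with neuronal roles stood outside that list. CHRNB3, a subunit of nicotinic acetylcholine receptors, had 0.0788, 1.08 and 12.3 FPKM, and its change for E8 against E5 was 2.67. SYT4, a synaptotagmin of secretory vesicles, had 0.214, 1.48 and 10.8 FPKM. Both were under an FPKM of 1 at E3 and above 10 at E8. ST8SIA3, a sialyltransferase of the nervous system, had 0.344, 0.863 and 4.13 FPKM.

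MEGF10, an engulfment receptor that also spaces amacrine and horizontal cells in mice, had 2.20, 8.58 and 19.9 FPKM. The table gives MEGF10 the same interval (chrZ:55080852-55463803) as an entry with the date-like symbol 3-Mar, which had 1.27, 5.68 and 38.1 FPKM. The change of 3-Mar for E8 against E3 was 4.11, more than that of any other member with a symbol listed once and an FPKM of at least 5. LMNB1, PRRC1 and C5ORF63 are listed with this interval too, so how reads were divided among these entries is uncertain. CPLX4, KCNV2 and SV2C, genes of synapses and excitable membranes, stayed under the threshold.

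Signalling genes went both ways. Of 29 members, none was higher and 2 were lower at E5 than at E3 (1.97% and 1% of all entries). At E8, 3 were higher and 4 lower than at E5 (4.53% and 4.46% of all entries), and 3 were higher and 5 lower than at E3 (6.65% and 5.29%). Their median changes were -0.08, -0.07 and -0.22. EGFLAM (pikachurin), a matrix protein that in mice joins photoreceptor terminals to bipolar dendrites, had 0.700, 1.43 and 11.5 FPKM. PRLR, the prolactin receptor, had 0.501, 0.242 and 5.13 FPKM, so it was lowest at E5 and highest at E8.

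The signalling genes lower at later stages included secreted inhibitors and receptors. FST (follistatin), which binds activins and blocks them, had 3.22, 0.264 and 0.00958 FPKM. NPR3, the clearance receptor of natriuretic peptides, had 11.8, 7.16 and 1.97 FPKM. EDG2, a receptor for lysophosphatidic acid, had 9.45, 6.02 and 1.35 FPKM.

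EFNA5, an ephrin that guides retinal axons, had 18.1, 14.7 and 7.73 FPKM, and its change for E8 against E3 was -1.13. ENC1, an actin-binding protein of neural tissue, had 15.9, 9.70 and 5.23 FPKM. VLDLR, a receptor for reelin, was lowest at E5, at 13.2, 6.08 and 12.2 FPKM. JAK2, the kinase of cytokine receptors, had its lowest value at E5 too, with 22.9, 13.2 and 17.5 FPKM, but its changes stayed under 1.

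Transport and metabolic genes were led by SLC1A3, the glutamate transporter of Müller glia. It had 2.40, 2.50 and 27.0 FPKM, level between E3 and E5 and higher by 3.00 at E8 than at E5, the largest such change among members with a symbol listed once and an FPKM of at least 5. Of the 25 members of this group, none changed between E3 and E5 by 1 or more, where 2.97% of all entries did. At E8, 3 were higher and 3 lower than at E5 (4.53% and 4.46% of all entries), and 2 were higher and 4 lower than at E3 (6.65% and 5.29%). ABCA1, the cholesterol exporter, had 1.71, 2.15 and 7.02 FPKM, and GCNT1, a glycosyltransferase, had 7.47, 5.43 and 11.9. HMGCS1, an enzyme of sterol synthesis, was abundant at 119, 151 and 231 FPKM, and it changed by less than 1 in every comparison.

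Lower at E8 was B4GALT1, a galactosyltransferase, with 11.0, 11.0 and 3.61 FPKM. SLC12A2, a sodium, potassium and chloride cotransporter, peaked at E5 with 27.0, 39.7 and 12.1 FPKM. FECH, the last enzyme of haem synthesis, had 25.04, 17.99 and 9.96 FPKM. LPL, lipoprotein lipase, had 11.4, 8.24 and 1.85 FPKM. SEPP1, the selenium carrier selenoprotein P, stood apart from these with 10.4, 23.5 and 38.0 FPKM.

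MLANA, TYRP1 and SLC45A2, pigment genes on Z, were highest at E5 and lowest at E8. MLANA, a protein of maturing melanosomes, had 7.01, 57.1 and 2.18 FPKM at E3, E5 and E8, with changes of 2.86 for E5 against E3 and -4.19 for E8 against E5. TYRP1, an enzyme of melanin synthesis, had 3.14, 16.3 and 0.998 FPKM, and SLC45A2, a melanosomal transporter, had 3.05, 3.86 and 0.620. TYRP1 and SLC45A2 were 2 of the 3 Z genes in the pigment list. The third, SLC24A2, was low and differed in course, highest at E8 with 0.461, 0.513 and 1.25 FPKM. Whether it acts in pigment cells was not checked.

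The 8 pigment epithelium markers elsewhere in the genome summed to 44.0, 162 and 10.8 FPKM over the stages, with DCT at 19.5, 84.7 and 3.19 and TYR at 5.43, 45.7 and 1.74. Of the 8 listed markers that passed the filter, 6 were higher at E5 than at E3 (1.97% of all entries). All 8 were lower at E8 than at E5 (4.46% of all entries). They include MLANA, TYRP1 and SLC45A2, and the part that attached pigment epithelium had in the Z values was not tested. TRPM3, a cation channel of neurons and pigment epithelium, also peaked at E5, with 8.70, 19.3 and 8.60 FPKM. So did GAS1, a hedgehog coreceptor, with 13.8, 25.04 and 8.23 FPKM, and DAB2, an endocytic adaptor, with 1.68, 4.11 and 0.384.

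Matrix and adhesion genes held both proteoglycans that were low at E8 and secreted proteins that were high there. Of 18 members, 1 was higher and 1 lower at E5 than at E3 (1.97% and 1% of all entries). The lower one was FST, which was also counted among the signalling genes, here and for E8 against E3. Relative to E5, 3 were higher and 4 lower at E8 (4.53% and 4.46% of all entries), and relative to E3, 3 were higher and 5 lower (6.65% and 5.29%). VCAN (versican), a large proteoglycan of embryonic matrix, had 48.3, 31.0 and 9.23 FPKM, with a change of -2.27 for E8 against E3. THBS4, a thrombospondin, had 26.7, 17.8 and 7.25 FPKM. HAPLN1, the link protein that binds versican to hyaluronan, had 1.53, 2.38 and 0.0826, and FREM1, a basement membrane protein, had 0.932, 3.06 and 0.420.

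The mesenchyme markers summed to 14.9 FPKM at E8, against 219 at E5. Of the 8 markers that could be compared, 6 were lower at E8 than at E5 (4.46% of all entries). Their part in the values of VCAN, THBS4, HAPLN1 and FREM1 was not tested. PCSK5, a protease that activates growth factors, had 10.3, 5.97 and 3.64 FPKM and a change of -1.29 for E8 against E3. FBN2, a fibrillin whose symbol several entries share, had 4.06, 7.26 and 1.07 FPKM.

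Higher at E8 in this group was EDIL3, an integrin ligand, with 1.63, 3.12 and 10.5 FPKM. ADAMTS19, a secreted metalloprotease, had 2.86, 4.29 and 10.2 FPKM. Outside the list, LIX1, a gene known from the chick limb bud, was close to 0 at E8, with 5.11, 3.08 and 0.0723 FPKM.

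**Figure D4:**
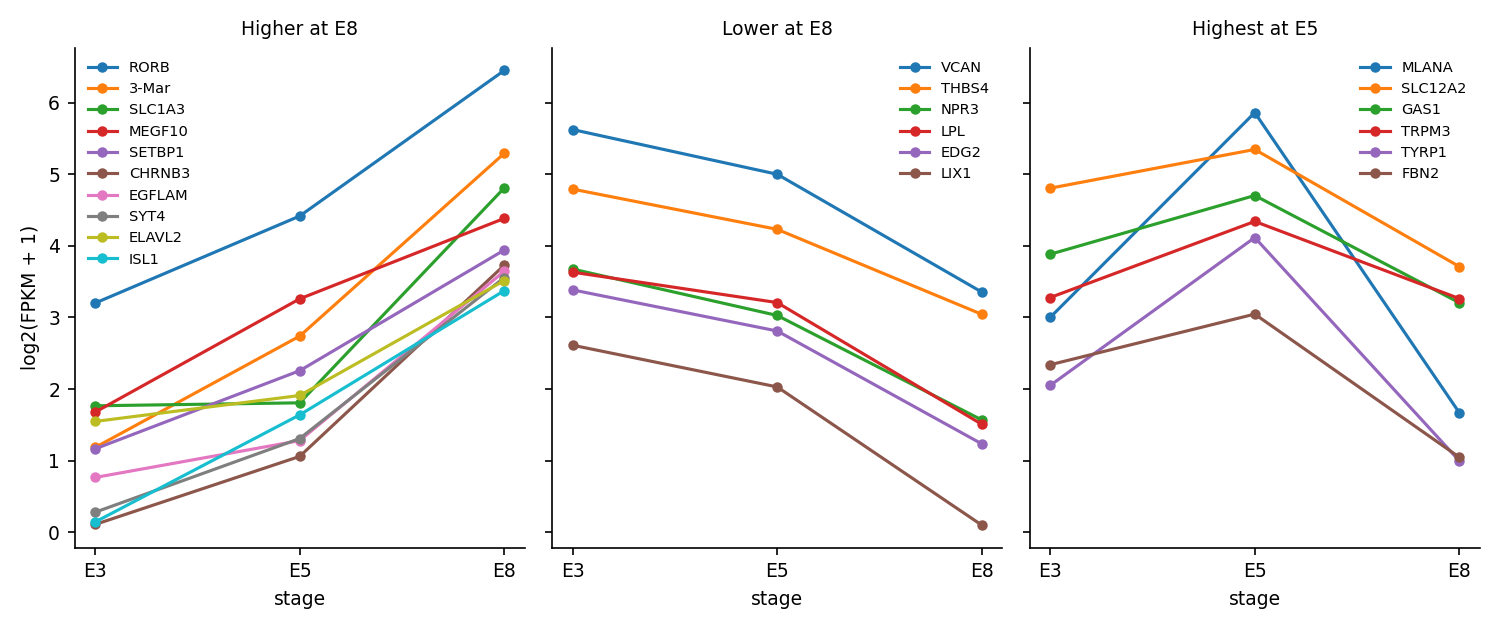
Values of log2(FPKM + 1) at E3, E5 and E8 (horizontal axis) for named Z genes, 1 pooled value per point, grouped as higher at E8, lower at E8 and highest at E5. SLC1A3 stays level between E3 and E5 and is higher at E8 (2.40, 2.50 and 27.0 FPKM), while MLANA has the sharpest peak (7.01, 57.1 and 2.18 FPKM).

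Cell cycle and DNA repair genes were high and flat. Of 30 members, none changed by 1 or more at E5 against E3, where 2.97% of all entries did, and PLK2, a polo-like kinase also induced in active neurons, was the only one to do so at E8 against E5 (8.98% of all entries), with 7.57, 7.73 and 19.1 FPKM. SMC2, a condensin subunit of mitotic chromosomes, had 164, 151 and 184 FPKM, CKS2, a cofactor of cyclin-dependent kinases, 147, 163 and 169, and LMNB1 (lamin B1), which shares its interval with MEGF10, 130, 140 and 146. XPA, a nucleotide excision repair factor, was lower at E8, at 267, 228 and 146 FPKM, by less than 1.

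Among the 16 genes of ribosomes and protein turnover none changed by 1 or more in any comparison (2.97%, 8.98% and 11.9% of all entries), with median changes of -0.05, -0.28 and -0.38. VCP, the segregase of ubiquitin-marked proteins, had 143, 142 and 81.3 FPKM, and TARS, the threonine tRNA synthetase, 112, 97.9 and 58.8. The 14 mitochondrial genes had median changes of 0.02, -0.26 and -0.25, and 1 of them, MRPS27 of the mitochondrial ribosome (57.3, 45.5 and 25.2 FPKM), was lower by more than 1 at E8 than at E3 (5.29% of all entries). OXCT1, the enzyme that activates ketone bodies, peaked at E5 with 20.9, 37.9 and 26.0 FPKM.

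Along Z, in windows of 10 Mb, the lowest median was between 30 and 40 Mb, with 3.80, 4.22 and 4.08 FPKM at E3, E5 and E8. It was highest between 0 and 10 Mb at E3 (8.92), and between 70 and 80 Mb at E5 (9.99), while at E8 the windows from 10 to 20 Mb (9.49) and from 70 to 80 Mb (9.46) were nearly level. The window from 30 to 40 Mb also had 41.2% unnamed members, and with symbols alone its medians were 9.32, 10.2 and 10.4 FPKM. Genes higher at E8 than at E5 were 20 of 124 between 50 and 60 Mb and 16 of 131 between 0 and 10 Mb. Between 70 and 80 Mb there were none of 61. The share was 7.54% over all Z genes and 4.53% over all entries. Counts per window are small, and no pattern along Z is read from them.

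Of the 20 between 50 and 60 Mb, 11 lay in 1 stretch, between MEF2C and TMEM161B (chrZ:59246545-59416938), which holds the microRNA entry gga-mir-9-2. That microRNA belongs to the miR-9 family, which is known from neural progenitors and neurons. The entry (chrZ:59286315-59287239) had 0.0606, 0.741 and 6.94 FPKM at E3, E5 and E8. An FPKM from an mRNA library over this interval is not a measure of the mature microRNA.

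The stretch was chosen after its values were seen. It holds 17 members, 15 of them unnamed, and 15 of the 17 were highest at E8. At E3 8 of them were at 0, and the highest had an FPKM of 1.45. The highest value at E5 was 2.04, and 4 of the 17 reached an FPKM of 5 at any stage. The 8 at 0 at E3 passed the filter through E8 alone, so for them the rule fixed a maximum at E8. The same holds for gga-mir-9-2, XLOC_024571 and XLOC_024573 (0.0220, 0.344 and 5.06 FPKM), which were under 1 at E3 and E5. Counts at E8 in this stretch thus come in good part from members admitted only through that stage. For E8 against E5, 11 of 16 compared were higher and none lower (4.53% and 4.46% of all entries). XLOC_024571 (chrZ:59277064-59277442) had 0.246, 0.994 and 21.6 FPKM, and ENSGALG00000023094 (chrZ:59281350-59283853) had 0.0468, 1.22 and 11.8. Whether adjoining unnamed entries are pieces of 1 transcript was not tested. Without this stretch, 54 of 846 Z genes (6.38%) were higher at E8 than at E5 and 35 lower.

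Some other unnamed entries lay beside a named gene of similar course. XLOC_024241 (chrZ:14574418-14575079) starts just past ISL1 and had 0.119, 2.30 and 7.88 FPKM. XLOC_024182 lies before SETBP1 and had 0.935, 3.35 and 8.55 FPKM. XLOC_024163, XLOC_024164 and XLOC_024165 follow each other between FECH, which was lowest at E8, and ST8SIA3, which was highest there. The first of them lies nearer to FECH but ran the other way, with 2.28, 8.16 and 18.6 FPKM.

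The Z entry with the widest range of all was ENSGALG00000015374 (chrZ:52408730-52414029), which the sources used here do not name. It had 1.00, 22.8 and 552 FPKM at E3, E5 and E8, with changes of 3.57, 4.54 and 8.11 for E5 against E3, E8 against E5 and E8 against E3. At E8 its level was of the order of RPL37, while at E3 it stood at the threshold. Of its neighbours, CHRNB3 (chrZ:52499728-52510435) was also highest at E8, whereas IDUA, a lysosomal enzyme gene, was flat at 6.91, 7.31 and 7.09 FPKM.

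Z genes past the threshold often had a neighbour past it. For E8 against E5, 44 of 100 (44.0%) had the nearest non-overlapping entry on either side changed the same way, against 34.4% of 659 on chromosomes 1 to 5. For E5 against E3 it was 12 of 33 (36.4%), against 17.9% of 218, and for E8 against E3 52 of 116 (44.8%), against 39.2% of 826. Unnamed entries, more common on Z, enter these shares. So does the stretch between MEF2C and TMEM161B, where 11 of 16 compared were higher at E8 than at E5. The shares without it were not computed.

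Entries on W, the chromosome that males lack, were above 0 at each stage. Of 12 W entries, 10 were above 0 and 5 reached an FPKM of 1, and they summed to 49.0, 30.8 and 60.8 FPKM at E3, E5 and E8. UBAP2 (chrW:13462-94718) had 9.12, 6.32 and 12.0 FPKM. Of the 10 entries, 7 were lowest at E5 and 9 were highest at E8. Whether reads of Z relatives were assigned to these entries, and the part that the sex of the embryos had in the Z levels, was not tested.

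The Z genes listed as having a known W relative were mostly flat. Of 14 such members, ST8SIA3 alone changed by 1 or more (2.97%, 8.98% and 11.9% of all entries in the 3 comparisons), and the median changes were -0.01, -0.21 and -0.23. Of the Z relatives that could not be matched by a symbol listed once, SMAD2, a mediator of TGF-beta signals, had 26.1, 30.3 and 29.0 FPKM, and CHDZ, a chromatin remodelling helicase, had 82.5, 74.1 and 54.0. SPINZ, 1 of the 14, had 56.7, 54.6 and 68.9 FPKM. CHPKCI, a Z entry also taken to have a W relative but outside the 14, was more abundant, at 422, 436 and 343 FPKM. Without the listed genes and CHDZ the level ratio to chromosomes 1 to 5 was 0.702, 0.741 and 0.765. The 5 entries on unplaced Z sequences and the 42 on unplaced W sequences were all at 0, as were all 1419 entries on unplaced sequences of any chromosome, and the sources used here do not say whether these sequences were part of the alignment. DMRT1, the Z-linked testis-determining gene of birds, was low with 1.46, 1.37 and 3.45 FPKM, and DMRT3 stayed under the threshold.

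In pigeon, 268 of the 482 symbols were listed once, and 253 of them had a maximum of at least 1. Where these genes lie in the pigeon genome is not given in the table, and the tables were normalized separately, so changes within a species are set side by side. For E8 against E5, 250 genes could be compared. Of the 12 that were higher at E8 in chicken, 9 were higher in pigeon too, and of the 11 lower in chicken, 3 were lower in pigeon and none higher. On chromosomes 1 to 5 the counts were 59 of 82 and 58 of 98.

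ISL1 had 0.143, 2.42 and 32.7 FPKM in pigeon at E3, E5 and E8, with a change of 3.30 for E8 against E5 in pigeon and 1.73 in chicken. RORB had 11.3, 21.8 and 163 FPKM in pigeon, with changes of 2.85 in pigeon and 2.03 in chicken. MAP1B changed by 2.01 in pigeon and 1.30 in chicken. SLC1A3 ran the other way in size, with a change of 1.28 in pigeon, where it was already at 53.5 FPKM at E3, and 3.00 in chicken.

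Some genes passed a change of 1 in chicken and not in pigeon, or the reverse, and the differences between species were not tested. MEGF10 changed by 0.20 in pigeon for E8 against E5 and 1.12 in chicken, and LPL by -0.48 in pigeon and -1.70 in chicken. FREM1 had opposite signs, 0.72 in pigeon and -1.52 in chicken. Higher at E8 in pigeon but under 1 in chicken were FRMD3 (2.15 and 0.37), TRIM36 (2.04 and 0.76), and UNC13B, a priming factor of synaptic vesicles (2.03 and 0.87).

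FST was lower after E3 in both species, with 18.02, 2.84 and 0.345 FPKM in pigeon. SLC45A2 was lower at E8 than at E5 in pigeon as well, with a change of -1.81, and MLANA had 1.15 FPKM at E3 and 12.0 at E5 in pigeon and was listed at 0 at E8. Across the 250 genes the Pearson correlation of the changes was 0.743, and across 2483 genes of chromosomes 1 to 5 it was 0.639. These are descriptions across genes that share libraries, and genes are not independent replicates. In pigeon 22 of the 250 were higher and 7 lower at E8, with a median change of 0.14, against -0.07 in chicken. On chromosomes 1 to 5, 200 of 2483 were higher and 126 lower in pigeon, with a median change of 0.12, against -0.0026 in chicken.

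**Figure D5:**
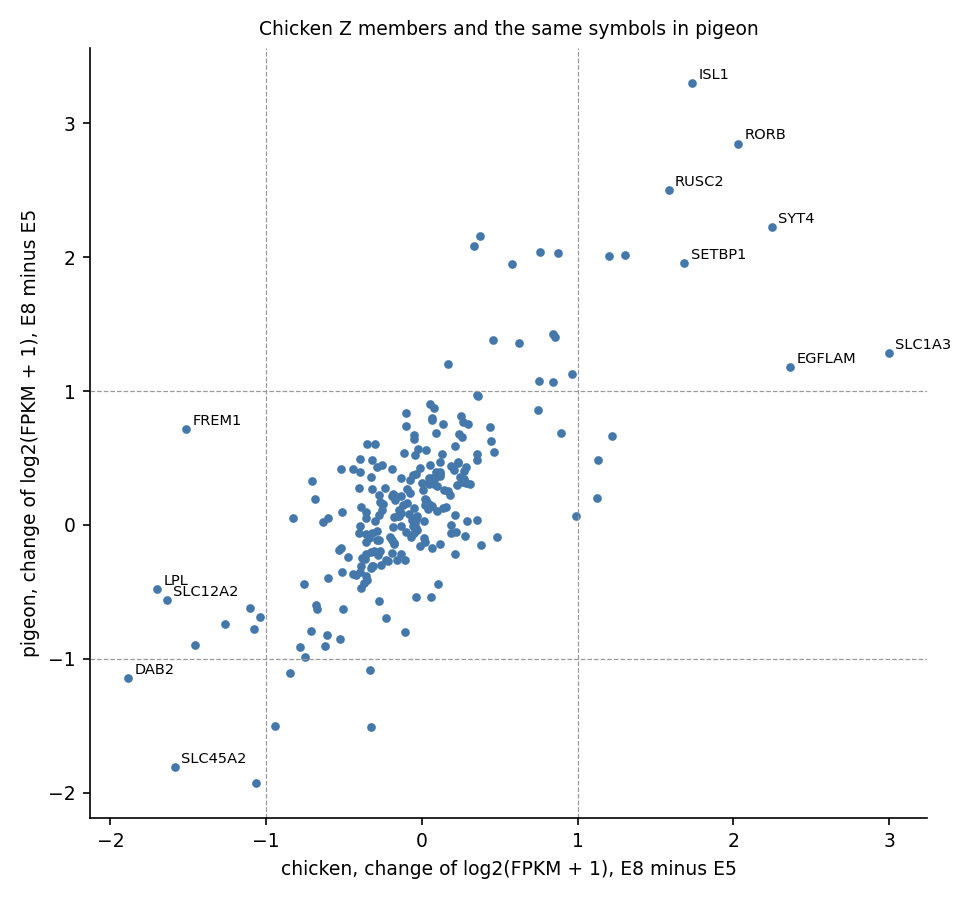
Change of log2(FPKM + 1) for E8 minus E5 in chicken (horizontal axis) and pigeon (vertical axis) for 250 Z genes with a symbol listed once in both tables, 1 point per gene. Dashed lines mark changes of 1 and -1. ISL1, RORB and SYT4 lie at the upper right, SLC1A3 farthest right, and FREM1 at the upper left with -1.52 in chicken and 0.72 in pigeon.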

How the data were processed

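Per the file headers, the authors deposited FPKM, as 1 pooled column for each stage. TopHat2, Bowtie2, Cufflinks and Cuffdiff are named in the submitters' processing notes, without versions. The sources used here do not give the genome build, the annotation, read totals (depth is therefore unknown) or the strand setting of the counting. Libraries were stranded, per the labels' protocols, and groups came from the labels.

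Changes were differences of log2(FPKM + 1), with a pseudocount of 1, between stages with values above 0, among entries with an FPKM of at least 1 at one stage or more. A change of at least 1 was counted. The intended limma test needs separate libraries, so it was not run and there is no p-value. The counting was tested on simulated data, built on entries with an FPKM of at least 5 at E3 and planted changes clearly past 1. Entries at lower levels and changes near 1 were not covered by it. Python 3.11.15, pandas 2.3.3, numpy 2.4.6 and matplotlib 3.10.9 were used.

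Members and gene lists were chosen with earlier results of these data known. The lists overlap, so a gene such as FST, KIF2A, OXCT1 or ACO1 is counted in more than 1 of them. Named by rule were the 8 highest and 8 lowest changes per comparison (FPKM of at least 5 at the higher stage), the 8 highest levels, the 4 largest changes of each list and 12 fixed genes, of which ONECUT2, CCNB1 and CHD1 matched no Z symbol. Genes outside the rule (among them NFIL3, BNC2, EFNA5, DAB2, HAPLN1, FREM1, ADAMTS19, GCNT1, B4GALT1, FECH, FBN2, IDUA, unnamed entries and pigeon examples) were chosen after their values were seen. Some genes named by the rule are left out here. Alternatives are given in the closing section.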

Additional observations from a re-analysis of the deposited data

How the results depend on the processing

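No paired analysis was possible because each column is 1 pooled value per stage, and for the same reason neither leaving out a replicate nor a replicate block was run. Leaving out overlapping entries, and leaving out the stretch between MEF2C and TMEM161B, were chosen after seeing the data. Of 93 recomputed values, 65 stayed close to the reported ones (a count within 1.5 times, a ratio or median within 0.1 on the log2 scale) and 28 did not. The cause of each shift was not tested, beyond what a stricter or looser threshold does by construction.

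The ratio of the Z median to that of chromosomes 1 to 5 (0.749, 0.775 and 0.807 at E3, E5 and E8) was below 1 in 23 of 24 alternatives, between 0.678 and 1.17. With no filter it was 0.951, 0.991 and 1.17, and against all numbered autosomes it was 0.678, 0.689 and 0.726. With symbols only it was 0.814 at E3 and 0.842 at E5, and from mean log2(FPKM + 1) it was 0.804 at E3 and 0.840 at E5. Without overlapping entries it was 0.836 at E5 and 0.904 at E8. At E5 it was 0.851 with an FPKM of at least 5 and 0.837 without the stretch between MEF2C and TMEM161B.

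The number of Z genes past a change of 1 (33 for E5 against E3, 100 for E8 against E5 and 116 for E8 against E3) was 81, 168 and 186 with a pseudocount of 0.1, and 5, 25 and 44 with a pseudocount of 5. With symbols only it was 15, 55 and 66, and with a change of at least 2 it was 4, 18 and 36. With an FPKM of at least 5 it was 61 for E8 against E5 and 71 for E8 against E3. The share of higher genes among those counted ranged over 73.3% to 88.9%, 52.7% to 88.9% and 54.5% to 75%. In 13 of 13 settings for both comparisons with E8, the share of higher Z genes exceeded that of chromosomes 1 to 5. For E5 against E3 it did so in 12 of 13. There a pseudocount of 5 gave 0.469% on Z and 0.601% on chromosomes 1 to 5. The settings share the same values and are not separate checks. The main setting is among the 13, and with a pseudocount of 1 dropping the filter cannot change a count. Median changes stayed within 0.1 of the reported ones in every alternative run, but the reported medians are themselves under 0.1 in size, so this could hardly fail. With symbols only they were -0.0024, -0.076 and -0.088, against 0.031, -0.034 and -0.0084 in the main setting. Scaling by median ratios, with factors of 1.004, 1.002 and 0.996 at E3, E5 and E8, or by quantiles moved no count past 1.5 times. Precision is limited by 1 pooled value per stage and by depth that is unknown, above all for members near an FPKM of 1.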
